A study of Drosophila melanogaster with 5 samples.

Results

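Of 7 genes of epithelial junctions and cell polarity, 4 had H3K18ac peaks that were lower in wing discs treated with etomoxir than in control discs. The genes were chosen by identifier, and every peak that the deposited table assigns to one of them was taken. pyd (FBgn0262614) had 7 listed peaks, shg (FBgn0003391) 2, crb (FBgn0259685) 1 and baz (FBgn0000163) 1, which gives 11 of the 2626 listed peaks. dlg1 (FBgn0001624), Fas3 (FBgn0000636) and scrib (FBgn0263289) had none and are described as not listed. The median difference of the 11 peaks, etomoxir minus control, was -1.09 on the log2 scale, which is a 2.13-fold lower mean read count, and the differences ran between -2.06 (baz) and -0.82 (crb).

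Epithelial cells of the wing disc are joined near their apical side by adherens junctions, in which the cadherin encoded by shg binds its like on the neighbouring cell. Baz (Par-3) positions these junctions, and apical to them lies the complex of Crb, which marks the apical membrane. Basal to the adherens junctions lie the septate junctions, which seal the epithelium and hold Fas3, Scrib and Dlg. Acetylation of histone H3 at lysine 18 (H3K18ac) marks active promoters and enhancers. Etomoxir blocks the import of long-chain fatty acids into mitochondria, which inhibits fatty acid β-oxidation (FABO), and the comparison asks which H3K18ac peaks depend on FABO.

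H3K18ac was mapped by Cut&Run, in which a nuclease bound to the antibody releases the marked DNA for sequencing, in 5 libraries of w1118 wing discs from both sexes at the third larval instar. The etomoxir group held 2 libraries of discs kept for 2 h in explant culture with 500 µM etomoxir. The control group held 3 libraries, 2 of explants given the same 2 h of culture but no etomoxir and 1 of discs that were not cultured. The table gives for each peak the log2 of the mean normalised read count in each group as the authors computed it, not a value per library, so no spread between replicates and no new test can be given for any value here. The depth of each library is likewise not in the table. The study's own reporting form lists far more unique reads for 1 cultured control than for the other libraries, and the part of that library in the group values was not tested. The table holds only peaks past the authors' false discovery rate limit, so a gene without a listed peak may have carried no peak or an unchanged one. Among genes that mark regions of the disc, ap had 1 listed peak, vg 1, tsh 2 and hth 5, and nub was not listed.

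All 11 peaks were lower in etomoxir discs, and none was higher. Over all listed peaks 83.5% were lower, and the 7 genes were chosen with these values known, so this count describes the genes and tests nothing. The lowest, median and highest group values were 3.71, 5.81 and 7.33 in etomoxir discs, against 5.77, 6.85 and 8.48 in control discs (log2 mean normalised reads). Of the 11 peaks, 7 differed by at least 1 on the log2 scale (63.6%), beside 68.9% of all lower peaks. The median over all 2194 lower peaks was -1.19, with quartiles of -1.53 and -0.94. Of the 11 differences, 10 lay between -1.30 and -0.82, while baz, at -2.06, was below the lower quartile. The crb peak (-0.82) and a pyd peak (-0.90) were above the upper quartile. Of the 7 genes, 4 had a lower peak, where 7.89% of all protein-coding genes did. All 7 genes are long, however, and among protein-coding genes at least as long as the shortest of them (shg, 7544 bases) the share was 22.5%. The other members are much longer than shg, from 19464 bases (crb) to 104829 bases (pyd). The 22.5% is therefore not matched to them in length, and no share was computed for genes of their length.

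**Figure D1:**
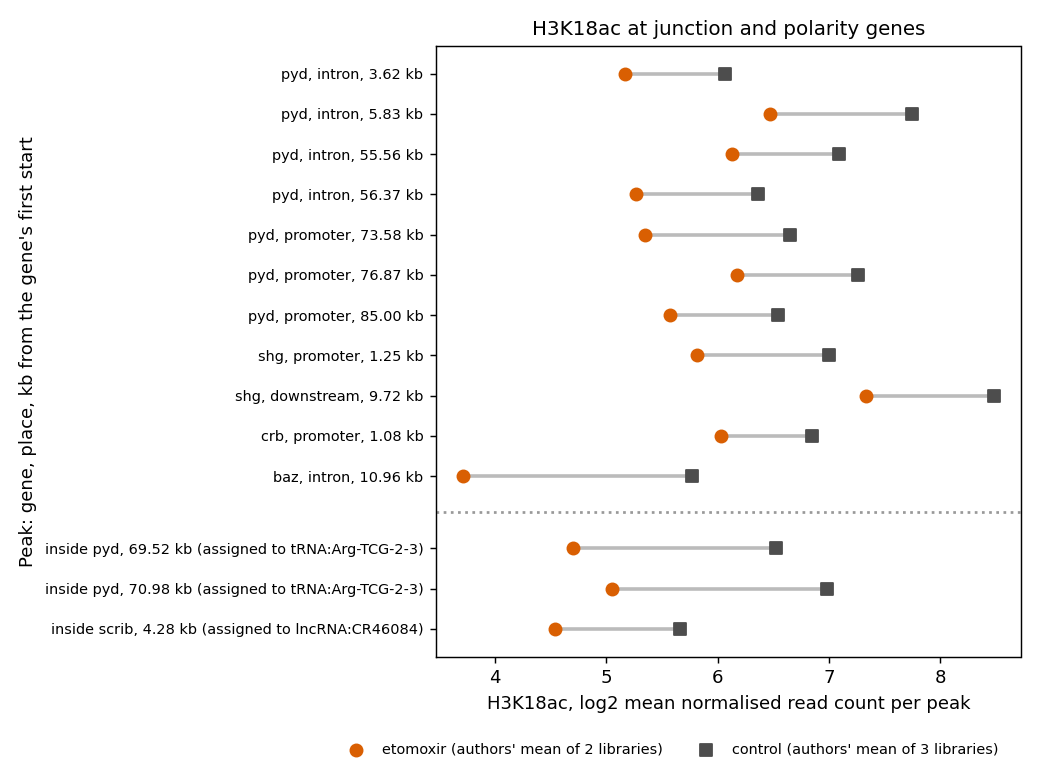
H3K18ac as the log2 mean normalised read count of each peak (horizontal axis) in etomoxir (circles) and control (squares) discs, both the authors' group means without replicate error, with peaks named by gene, place and the distance of the peak's centre from the gene's first transcription start. All 11 assigned peaks, and the 3 below the dotted line that lie inside pyd or scrib but are assigned to other genes, have the etomoxir value to the left, and the baz peak has the widest gap.

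baz encodes the scaffold protein Bazooka, the fly Par-3, which positions the adherens junction and recruits aPKC and Par-6. The gene lies on X from 17160006 to 17200728 (dm6, plus strand), and its only listed peak, from 17170731 to 17171192, is in the first intron, 10725 bases after the start that all 4 annotated transcripts share. The peak had a mean of 13.1 normalised reads in etomoxir discs and 54.6 in control discs, or 3.71 and 5.77 on the log2 scale. The difference of -2.06 is a 4.17-fold lower count, and 7.52% of all lower peaks had a larger drop. It was also the weakest of the 11 peaks in the controls, with only 12.0% of all lower peaks below it, and its fold change rests on few reads in the etomoxir libraries.

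crb encodes the transmembrane protein Crumbs, which defines the apical membrane. The gene lies on 3R from 24295078 to 24314541 (plus strand) and its 4 annotated transcripts share 1 start. The peak lies from 24295589 to 24296729 and begins 511 bases after that start. It covers 865 bases of intron, 238 coding bases and 38 bases of 5′ untranslated sequence. Its mean was 65.3 normalised reads in etomoxir discs and 115 in control discs, a difference of -0.82 on the log2 scale. This was the smallest drop of the 11 peaks, and 85.2% of all lower peaks dropped by more. The crb and baz peaks thus mark both ends of the range, the one just inside the start of its gene and the other deep in an intron.

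The central 300 bases of both peaks are shown because they hold the smallest and the largest drop among the 7 genes, and are given on the plus strand of the RefSeq copy of dm6 (Release 6). They span chrX:17170811-17171110 for baz and chr3R:24296009-24296308 for crb. Both windows were searched on both strands for AACCGGTT (Grainy head), GAGAG (GAGA factor), GGAATG (Scalloped), CAGGTAG (Zelda), TATCGATA (the DNA replication-related element) and CACGTG (E-box), and none was present, so no base is in capitals.
baz peak: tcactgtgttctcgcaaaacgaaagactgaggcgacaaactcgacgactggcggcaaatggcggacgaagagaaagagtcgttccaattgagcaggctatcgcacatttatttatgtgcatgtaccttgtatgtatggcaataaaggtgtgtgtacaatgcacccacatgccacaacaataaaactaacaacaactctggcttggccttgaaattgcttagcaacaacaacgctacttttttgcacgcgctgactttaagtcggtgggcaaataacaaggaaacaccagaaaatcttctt
crb peak: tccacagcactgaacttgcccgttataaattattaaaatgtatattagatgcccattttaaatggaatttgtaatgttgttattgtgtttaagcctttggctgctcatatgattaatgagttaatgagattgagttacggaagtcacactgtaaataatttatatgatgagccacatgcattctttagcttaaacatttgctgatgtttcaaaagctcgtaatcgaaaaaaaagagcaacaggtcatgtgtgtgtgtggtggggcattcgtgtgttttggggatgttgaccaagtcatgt
The baz window has a GC content of 44.0% and the crb window of 35.7%.

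pyd (Polychaetoid) is the fly homologue of the tight junction protein ZO-1 and acts at adherens junctions. It lies on 3R from 8827068 to 8931896 (minus strand), and at 104829 bases only 0.579% of protein-coding genes are longer. Its 12 annotated transcripts use 6 starts, of which the first is at the 5′ end of the gene, 4 lie between 64.46 and 74.24 kb along it and the last, shared by 6 transcripts, lies at 85.61 kb. The 7 peaks had a median of 5.57 in etomoxir discs and 6.65 in control discs (log2 mean normalised reads). Their differences lay between -1.30 and -0.90, and each was within 0.21 of their median of -1.09.

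In the first intron of the longest transcript, pyd-RJ, a peak from 8925442 to 8926686 had a mean of 88.6 normalised reads in etomoxir discs and 214 in control discs (-1.27 on the log2 scale). It was the strongest pyd peak in both groups. A narrow peak from 8928086 to 8928468, nearer to that start, had 36.0 reads in etomoxir discs and 67.2 in control discs (-0.90), the smallest drop and the lowest level of the 7 in the controls.

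In the second intron of pyd-RJ lie a pair of peaks 49 bases apart. The one from 8875231 to 8875828 had 38.6 reads in etomoxir discs and 82.1 in control discs (-1.09). Its neighbour from 8875878 to 8876789 had 70.0 reads in etomoxir discs and 136 in control discs (-0.96). The pair therefore differed in height and little in their drop. Between this pair and the peaks near the first start no peak was listed over 48652 bases, a stretch in which the annotation places 4 transposable elements covering 16615 bases, and the part of these elements in the gap was not tested.

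The other 3 pyd peaks lie at internal promoters. The peak from 8857953 to 8858674, which lies 292 bases upstream of the start of pyd-RI, had 40.8 reads in etomoxir discs and 100.4 in control discs, the largest drop at pyd (-1.30). The peak from 8854507 to 8855550, 2111 bases downstream of the same start, had 72.0 reads in etomoxir discs and 153 in control discs (-1.09). The peak from 8846379 to 8847422 lies 90 bases upstream of the start shared by 6 transcripts and had 47.5 reads in etomoxir discs and 93.1 in control discs (-0.97). None of the listed peaks covers an annotated pyd start, and all 7 lie wholly in introns of the gene.

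A further 2 listed peaks lie inside pyd and are assigned to tRNA:Arg-TCG-2-3, an arginine tRNA gene within it, because its start is nearer. They flank the tRNA gene and are 677 bases apart. The peak from 8860449 to 8861377 had 33.1 normalised reads in etomoxir discs and 126 in control discs (-1.93), and the one from 8862055 to 8862705, of whose bases 643 are coding sequence of pyd, had 26.0 reads in etomoxir discs and 91.8 in control discs (-1.82). Both drops exceed those of all 7 peaks assigned to pyd. Counted by overlap with the gene, pyd had 9 lower peaks.

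**Figure D2:**
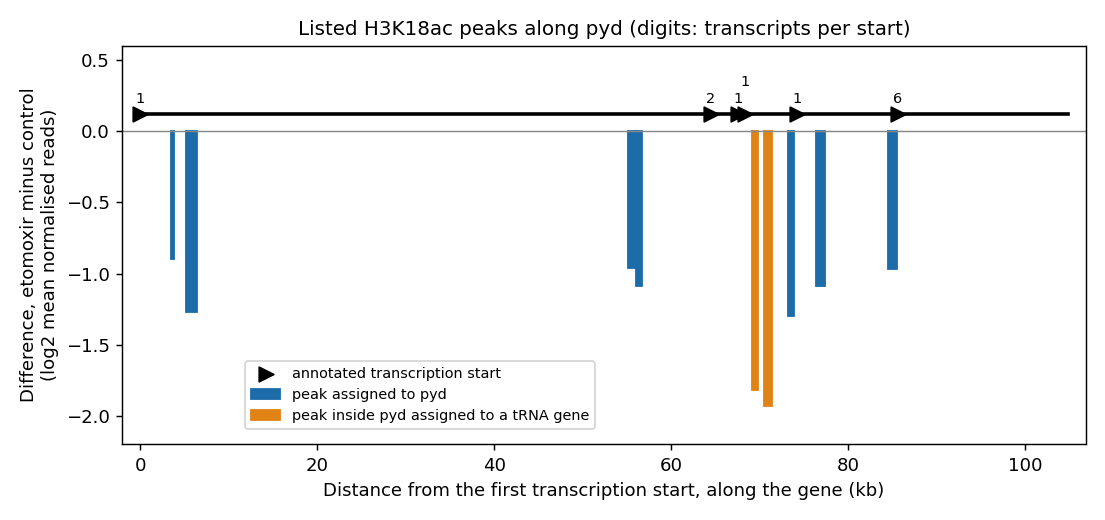
Listed H3K18ac peaks along pyd, drawn to scale by distance from the first transcription start (horizontal axis, kb, in the direction of transcription), with the log2 difference of the group means, etomoxir minus control, as the height of each bar. Arrowheads are the 6 annotated starts with their number of transcripts. The 7 peaks assigned to pyd reach -0.90 to -1.30, and the 2 assigned to the tRNA gene reach -1.82 and -1.93.

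The central 300 bases of 2 pyd peaks are shown, on the plus strand, which is opposite to the gene. The first is the peak upstream of pyd-RI (chr3R:8858163-8858462), shown for the largest drop at pyd, and the second the peak upstream of the start shared by 6 transcripts (chr3R:8846750-8847049), shown for its repeat and chosen after the matches had been counted. Capitals mark matches to GAGAG (read as CTCTC on this strand) and GGAATG, from the same 6 motifs as above.
pyd-RI promoter peak: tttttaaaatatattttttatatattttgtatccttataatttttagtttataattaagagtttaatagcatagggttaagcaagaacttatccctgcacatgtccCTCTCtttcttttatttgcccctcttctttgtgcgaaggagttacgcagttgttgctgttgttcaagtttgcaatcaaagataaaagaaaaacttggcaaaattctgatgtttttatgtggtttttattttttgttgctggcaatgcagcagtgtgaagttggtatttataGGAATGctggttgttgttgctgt
pyd peak at the start shared by 6 transcripts: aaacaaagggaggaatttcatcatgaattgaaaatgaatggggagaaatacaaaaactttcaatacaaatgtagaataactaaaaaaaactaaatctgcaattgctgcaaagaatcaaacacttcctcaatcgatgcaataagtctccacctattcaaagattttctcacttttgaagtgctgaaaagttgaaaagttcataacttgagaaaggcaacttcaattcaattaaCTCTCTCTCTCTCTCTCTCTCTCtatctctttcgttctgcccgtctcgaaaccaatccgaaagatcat
The first window holds 1 GAGAG and 1 GGAATG. The second holds 10 overlapping matches to GAGAG, which form a single run of 23 bases. As many matches occurred in 29 of the 2626 windows (1.1%). Over the 11 peaks, GAGAG was present in 5 windows (45.5%), beside 41.6% of the windows of all listed peaks, and GGAATG in 3 (27.3%), beside 15.0%. AACCGGTT, TATCGATA and CACGTG were in none of the 11, and they are rare among all windows (0.952%, 1.33% and 2.93%). CAGGTAG was in 1 of the 11, the downstream peak of shg, and in 2.28% of all windows. A match describes the letters only.

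shg encodes DE-cadherin, the adhesion molecule of the adherens junction. The gene lies on 2R from 21049654 to 21057197 (minus strand) and has 1 annotated transcript. The promoter-side peak, from 21055194 to 21056694, begins 503 bases inside the gene and covers 627 coding bases, 221 bases of 5′ untranslated sequence and 653 of intron. It had 56.1 normalised reads in etomoxir discs and 128 in control discs (-1.19 on the log2 scale). The other, from 21046409 to 21048543, lies 1111 bases past the 3′ end, outside the gene body. It had 161 reads in etomoxir discs and 357 in control discs (-1.15). With 8.48 on the log2 scale it was the strongest of the 11 peaks in the controls and stronger than 99.0% of all lower peaks, and at 2135 bases it was also the widest. The drops at both shg peaks were nearly the same although their control levels differed. The deposited table assigns the second peak to shg as the nearest start, 8654 bases away, and what it acts on was not measured.

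dlg1 (Discs large) and scrib (Scribble) encode scaffold proteins of the basolateral membrane whose loss makes wing discs overgrow, and Fas3 (Fasciclin 3) is an adhesion molecule of the septate junction. None of them is named in the table, but listed peaks lie near all 3. Inside scrib (3R, 26536350 to 26604051), in an intron, the peak from 26540396 to 26540866 had 23.3 normalised reads in etomoxir discs and 50.6 in control discs (-1.12) and is assigned to lncRNA:CR46084, a non-coding RNA gene within scrib. A peak assigned to the neighbouring plum gene, 1451 bases upstream of scrib, had 5.49 in etomoxir discs and 6.50 in control discs on the log2 scale (-1.01). By overlap with the gene body, 5 of the 7 genes had a lower peak, where 7.68% of all protein-coding genes did. scrib counts here only through its intronic peak, which did not pass an FDR under 0.01. In the controls only 8.93% of all lower peaks were weaker than that peak. Overlap depends on gene length and all 7 genes are long, and no share by overlap was computed for genes of their length. Upstream of Fas3 (2L, 18320102 to 18393441) stood 4 lower peaks within 10 kb, assigned to lncRNA:CR45721 and lncRNA:CR44489, which were named after their values were seen. The nearest of them ends 4605 bases before the gene, with 6.55 in etomoxir discs and 7.75 in control discs (-1.20), and the others had differences of -2.13, -2.27 and -1.84.

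The nearest listed peaks to dlg1 and baz, both on X, went the other way. A peak 8705 bases upstream of dlg1 (X, 11369665 to 11409776) was at 8.55 in etomoxir discs and 4.64 in control discs (3.91 on the log2 scale). The peak nearest to baz outside the gene, assigned to Chchd2 and 8269 bases upstream, was at 8.45 in etomoxir discs and 5.21 in control discs (3.24). The dlg1 neighbour lies at the gene Pa1 of the annotation and is listed under an identifier not found there. No listed peak overlaps dlg1 or Fas3.

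By position, 5 of the 11 peaks carry a promoter annotation in the deposited table, which reaches to 3 kb (45.5%), 5 are intronic (45.5%) and 1 lies downstream of its gene. Over all listed peaks 65.7% are at promoters, 19.1% in introns and 1.10% just downstream. As 7 of the 11 peaks belong to 1 gene, the shares describe pyd more than the group. The median difference was -1.09 at both the promoter and the intronic peaks, with ranges of -1.30 to -0.82 and -2.06 to -0.90, beside medians of -1.12 and -1.27 over all lower promoter and intronic peaks. The 11 peaks had a median width of 1044 bases and a median GC content of 42.2%, against 894 bases and 45.4% for all lower peaks.

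**Figure D3:**
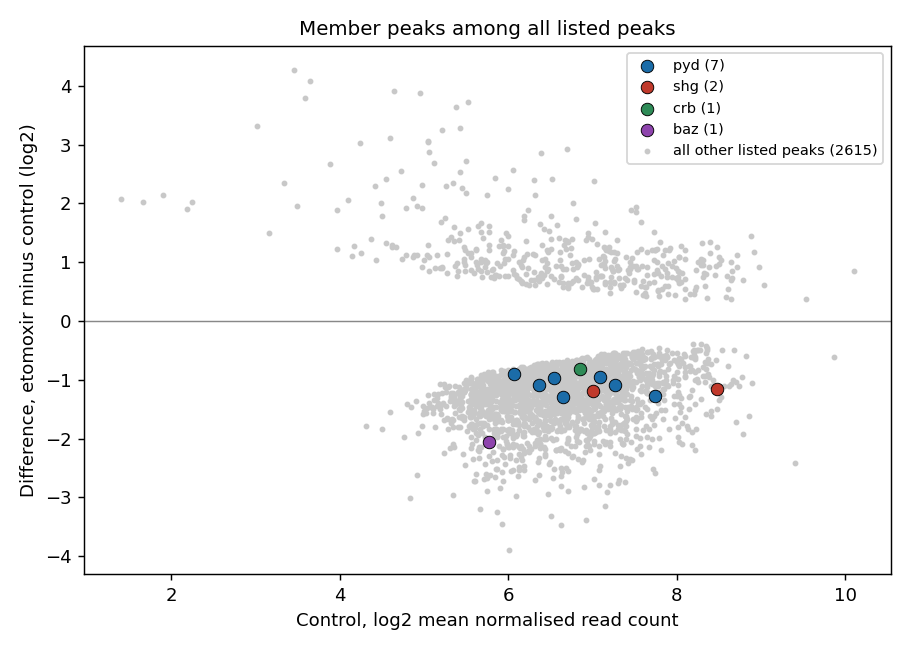
Difference of the log2 group means, etomoxir minus control (vertical axis), against the control value (horizontal axis, log2 mean normalised reads) for every listed peak, with the 11 peaks of pyd, shg, crb and baz in colour over the other 2615 in grey. Peaks with small differences at low control values are missing because the table lists only changed peaks. The coloured peaks lie between -2.06 and -0.82, and baz is the lowest of them.

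pyd was among the genes with the most listed peaks. Of 1785 genes with a listed peak, 1285 had 1, and 8 had 7 or more. Among 18 other genes with 6 to 8 listed peaks, those nearest to pyd in their median difference were Antp, a homeotic gene (7 lower peaks, median -1.05), CG43658 (6 lower peaks, median -1.19) and dpp, the BMP ligand gene (6 lower peaks, median -1.28). Antp and CG43658 are also about as long as pyd (102980 and 105010 bases), and dpp is 31452 bases long. Likeness here is the distance between medians over 2 group values, and says nothing beyond that.

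The 7 genes were set beside the other genes of 6 lists of adhesion and polarity genes. Of 55 other genes, 11 had a lower peak (20.0%), 3 a higher peak (5.45%) and 41 were not listed. Over all protein-coding genes 7.89% had a lower and 2.01% a higher peak. Among those at least as long as shg 22.5% had a lower one. The lists also hold genes shorter than shg, such as bou at 703 bases. All 11 list genes with a lower peak are longer than shg, so the 20.0% and the 22.5% cover genes of unlike length. The 16 lower peaks of the 11 genes had differences of -1.71 to -0.69 with a median of -0.96, and 14 of them carry a promoter annotation. In the list named apical polarity, par-1, a kinase that keeps Baz from the lateral membrane, had 1 lower peak. That peak was at 4.65 in etomoxir discs and 5.83 in control discs (-1.18). The partners of crb and baz in this list, namely sdt, Patj, veli, par-6 and aPKC, were not listed. l(2)gl, which acts with scrib and dlg1, was not listed either.

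In the adherens junction list the direction was split. shg, pyd and ed (Echinoid, an immunoglobulin-type adhesion molecule, with differences of -0.96 and -0.69) were lower. alpha-Cat, which links the cadherin complex to actin, was at 7.51 in etomoxir discs and 6.82 in control discs (0.69). p120ctn, which binds the cadherin tail, had 2 higher peaks (0.75 and 1.17), and Vinc (Vinculin, which binds α-catenin under tension) had 1 at 8.75 in etomoxir discs and 8.36 in control discs (0.39). H3K18ac was thus higher at alpha-Cat, p120ctn and Vinc and lower at shg, pyd and ed, while arm (β-catenin), cno, jub and RhoGEF2 were not listed. The alpha-Cat peak lies 4.77 Mb and the p120ctn peaks 4.59 and 4.60 Mb from the centromeric end of their arms, 3L and 2R. All listed peaks within 5 Mb of that end were higher there, 41 on 3L and 66 on 2R, and the part of this position in the alpha-Cat and p120ctn values was not tested. The same span went both ways on 2L (27 higher, 60 lower), 3R (22 higher, 16 lower) and X (3 higher, 43 lower). The Vinc peak on X and all peaks of the 7 genes lie farther than 5 Mb from that end.

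Of 20 septate junction genes other than Fas3, 4 had a lower peak and none a higher one. Over all protein-coding genes 7.89% had a lower and 2.01% a higher peak, beside 22.5% with a lower one among those at least as long as shg. This list and the integrin list hold genes shorter than shg, so the 22.5% is not matched to them in length. vari (Varicose, a scaffold protein) had 5.69 in etomoxir discs and 7.40 in control discs at its stronger peak (-1.71) and a second peak at -1.05. Both vari peaks lie 2.72 Mb from the centromeric end of 2L, and the part of this position in their values was not tested. nrv2, a subunit of the sodium pump, had a difference of -1.04, cora (Coracle) of -0.93 and Fas2 (Fasciclin 2) of -0.95 and -0.83. Of 12 genes of integrin and basal adhesion, 4 had a lower peak, beside the same shares over all genes, namely mew, an integrin α subunit gene (-1.18 and -0.94), trol, the perlecan gene of the basement membrane (-1.40 and -0.97), and the laminin genes LanB2 (-1.32) and LanA (-0.84). The core planar polarity list had 1 listed gene of 6, stan (Starry night, a seven-pass cadherin), at 5.93 in etomoxir discs and 6.69 in control discs (-0.76). Across these lists the 11 lower genes had smaller drops than the baz peak throughout.

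**Figure D4:**
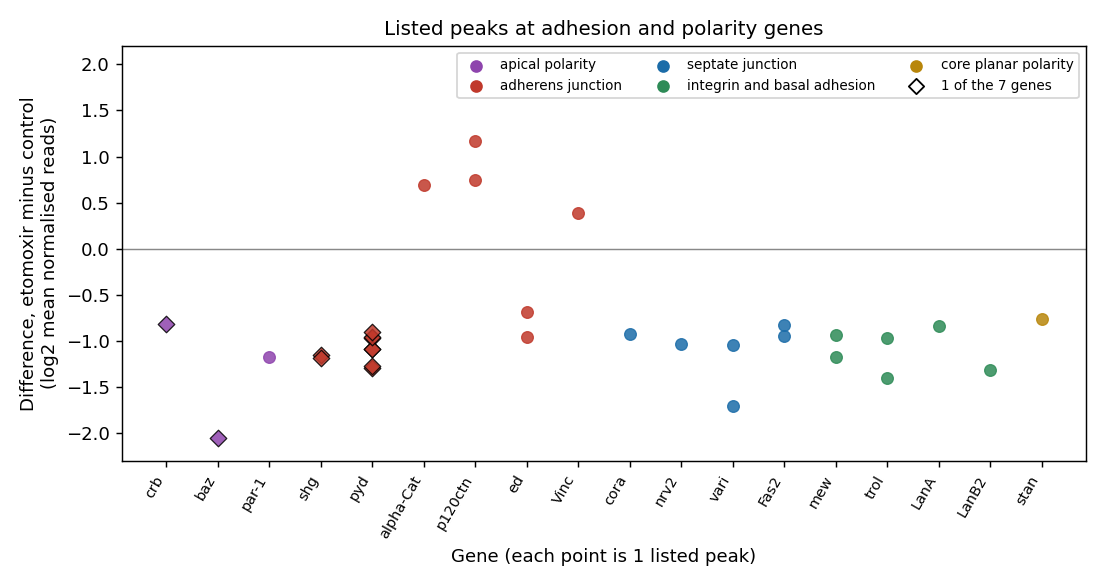
Difference of the log2 group means, etomoxir minus control (vertical axis), for each listed peak of the 18 genes in 5 of the 6 lists that had one (horizontal axis, coloured by list; the scribble module had none), with the 4 listed genes of the 7 as diamonds. Points above 0 are alpha-Cat, p120ctn and Vinc, at 0.39 to 1.17, and the lowest point is baz at -2.06.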

How the data were processed

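H3K18ac Cut&Run of wing discs was processed by the authors with Trim Galore 0.6.3, Bowtie2 2.4.2 (dm6), MACS2 2.1.1.20160309.6, DiffBind 2.10.0 and ChIPseeker 1.18.0, per the submitters' processing notes and the paper's methods. Duplicates were removed. Yeast DNA was spiked in, and whether it scaled the libraries is not stated. The deposited table holds log2 mean normalised read counts over all libraries, 2 etomoxir and 3 control libraries. The overall value equals the mean over 3 and 2 libraries within 0.02 at 100% of peaks, so the uncultured discs are part of the control. The deposited table also holds the authors' log2 fold change, which was not used, and their p-value and FDR, of which the FDR was used only to check the limit (highest 0.0499) and for stricter limits.

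Here the difference of the group values was computed for each peak. Peak starts were changed to 1-based positions. Genes and transcripts came from Ensembl release 115 (BDGP 6.54), in which 98.2% of gene identifiers were found and 99.8% of found transcripts had the deposited ends. Promoter means within 3 kb of a start, as deposited. Motifs were counted in 300 bases around each peak's centre, which exceeds 20 of the listed peaks. Overlap means at least 1 base. The motif search and overlap counts were tested on simulated data. No differential test was fitted, since no value per library was analysed. The table gives no read count per library, so no counting error was computed. The study's reporting form lists reads per library, which were not used in any value.

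The genes, lists and motifs were chosen with earlier results of these data known. The genes named are the 7, every listed gene of the 6 lists, the genes to which peaks inside the 7 are assigned and the 3 genes most like pyd. All 62 list symbols were found, 1 through a synonym (aka, listed as bark). The neighbours of dlg1, baz, scrib and Fas3 were named after their values were seen. Alternatives covered the FDR limit, the size of the difference, the gene assignment, the promoter definition and added reads. Python 3.11.15, numpy 2.4.6, pandas 2.3.3, scipy 1.17.1 and matplotlib 3.10.9 were used.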

Additional observations from a re-analysis of the deposited data

How the results depend on the processing

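The 11 lower peaks became 6 at an FDR under 0.001 and 7 with a difference of at least 1 on the log2 scale. No peak of the 7 genes was higher under any alternative run. For most alternatives this was fixed in advance, since they only keep, drop or join the 11 lower peaks. Counting by overlap was the only kind that could have added a higher one. Apart from the counts of 6 and 7, the other 12 alternatives stayed within 1.5 times the counts in the text, or, for the median, within -1.30 to -0.90. That range is a 95% binomial interval over the 11 peaks, which treats them as independent although 7 belong to pyd. It served only as a limit for the alternatives and gives no confidence in the median. At an FDR under 0.01, 9 peaks remained, and crb had none. The median of gene medians was -1.13, and with 8 reads added to each group it was -1.01. The lists held 15 genes with a lower peak, 18 by overlap with the gene body and 10 at an FDR under 0.01.

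No paired analysis was possible because the table holds group means only, and leaving out each library in turn was not run for the same reason. The 95% interval covers neither the choice of peaks nor the spread between discs. All listed peaks of the chosen genes were taken, and the genes were chosen with earlier results of these data known. Values rest on 2 etomoxir and 3 control libraries, whose read counts per library are not in the table, and the uncultured discs in the control group cannot be told apart from the cultured ones.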
